A study of Homo sapiens with 42 samples.

Results

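The p53-induced growth restraint genes are BTG2, TP53INP1, ZMAT3, PLK2, PLK3, CCNG1 and AEN. They were chosen by name, as direct p53 targets known for slowing division or preparing cell death. Of the 7 genes, 6 were measured among 19775 genes on the arrays. BTG2, which codes for an antiproliferative adaptor protein, carried no probe set under its own symbol in the annotation used and was not analysed here. Each gene was read from the probe set that names it alone and has the highest mean log2 signal over all 42 arrays.

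The arrays measured RNA of A375, a line grown from a human melanoma that carries an oncogenic BRAF mutation. The cells had been transfected for 48 h with siRNA that targets p53, CDT1 or BRCA1. The control siRNA, GL2, targets luciferase of the firefly and has no intended human target. Then 27000 cells were exposed for 26 h to 650 nM MLN4924, 5 uM Nutlin, 100 nM daunorubicin or 0.065% DMSO, the vehicle. The 14 groups of 3 arrays were p53 siRNA with MLN4924, with Nutlin, with daunorubicin and with DMSO in a first and a second set; CDT1 siRNA with MLN4924 and with DMSO; BRCA1 siRNA with MLN4924 and with DMSO; and GL2 siRNA with MLN4924, with Nutlin, with daunorubicin and with DMSO in a first and a second set. All groups carry an siRNA, so cells without transfection are not part of any comparison. The labels tell the DMSO sets apart only by the ending of their titles. Whether the 3 replicates of a group came from separate cultures is not stated, so the p-values cover only how these samples vary, and that variation may be technical.

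p53 is a transcription factor that MDM2 keeps low by ubiquitylation. DNA damage, or a blocked MDM2, lets it accumulate and switch on genes that halt the cell cycle, repair DNA or trigger death. Nutlin occupies the pocket of MDM2 that binds p53. Daunorubicin, an anthracycline, traps topoisomerase II on DNA and so causes strand breaks. MLN4924 inhibits the NEDD8-activating enzyme, which silences cullin-RING ubiquitin ligases; cells then retain CDT1, the protein that licenses replication origins, and replicate DNA again. The 6 measured genes act at different points of this response. TP53INP1 codes for a stress protein that assists p53 in the nucleus and takes part in autophagy. ZMAT3 codes for a zinc-finger protein that binds RNA and alters splicing. PLK2 and PLK3 code for polo-like kinases that respond to stress, CCNG1 for cyclin G1, which brings the phosphatase PP2A to MDM2, and AEN for an exonuclease that promotes apoptosis.

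p53 recognises a response element of 20 bases. RefSeq's promoter windows in the build GRCh38.p14, which run from 250 bases before to 50 bases after a gene's start, were searched for it without a spacer, with the core C and G letters fixed and up to 3 mismatches elsewhere. The element reads the same on both strands. It was found in 392 of 35116 windows, which is 1.12%. Of 7 windows of 5 measured members, 1 held a match, that of AEN, with 2 mismatches and a first base 34 bases before the start. The stretch of AEN before its start lies at chr15:88621090-88621339 on the plus strand, and it is shown because it holds the 1 match. The capitals mark the match, which is a description of letters and not evidence of binding.
AEN: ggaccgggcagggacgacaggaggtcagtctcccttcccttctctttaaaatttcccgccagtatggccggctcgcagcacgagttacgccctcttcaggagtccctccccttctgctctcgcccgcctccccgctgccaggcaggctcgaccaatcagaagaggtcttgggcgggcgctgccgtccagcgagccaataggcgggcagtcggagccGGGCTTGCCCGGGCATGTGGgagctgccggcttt

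Several libraries need care. Array 1 of p53 siRNA with daunorubicin had a 5′ to 3′ signal ratio of 0.0118 for actin and 0.0509 for GAPDH, whereas the other 41 arrays had 0.649 to 0.945 and 0.988 to 1.19. Array 3 of BRCA1 siRNA with MLN4924 had a BRCA1 level of 8.18, against 4.93 and 5.28 in its group, and array 3 of GL2 siRNA with MLN4924 had 4.70, against 7.95 and 8.24 in its group. CDT1 lay at 8.61 on the first of these arrays, against 7.27 and 7.31 in its group. On the second it lay at 7.27, against 8.86 and 8.81 in its group. Both arrays thus go against their labels, and for both genes each lay near the remaining arrays of the other group. Whether these arrays were exchanged was not tested, and they were kept as labelled. Beside the results that rest on these 3 doubted libraries, values from a fit without all 3 are given. The p53 siRNA was checked on CDKN1A, which codes for the cell cycle inhibitor p21 and is induced by p53. CDKN1A lay at 6.48 to 7.57 log2 signal in p53 siRNA cells under DMSO, below its 9.01 to 9.25 in GL2 siRNA cells. With the drugs, CDKN1A in p53 siRNA cells lay at 7.14 to 7.89 (MLN4924), 8.88 to 9.49 (Nutlin) and 9.88 to 10.05 (daunorubicin). In GL2 siRNA cells it lay at 11.67 to 11.74, 12.33 to 12.48 and 11.74 to 12.01. With Nutlin and daunorubicin it thus lay above its DMSO range in p53 siRNA cells too, and the part of any remaining p53 was not tested. Of the melanocyte markers, 5 of 7 measured had a median above 5.00, the log2 of the median deposited signal. SOX10 (10.3), S100B (8.41) and MITF (8.29) led these markers, while PMEL (3.99) and MLANA (4.12) were dim. The summed melanocyte level was 9.38 to 9.74 in GL2 siRNA cells with MLN4924, against 10.60 to 11.32 over both DMSO sets. It was also lower with MLN4924 in p53 siRNA cells (9.26 to 9.42, against 10.86 to 11.42 over both sets). In CDT1 siRNA cells it was 9.78 to 9.88, against 11.23 to 11.42, and in BRCA1 siRNA cells 9.51 to 9.98, against 11.17 to 11.38. The melanocyte level was thus lower with MLN4924 in each siRNA, and its part in the MLN4924 results was not tested. With daunorubicin in p53 siRNA cells it was 10.26 to 10.70, against 10.98 to 11.13 in the first p53 siRNA DMSO set. With Nutlin in GL2 siRNA cells it was 11.38 to 11.73, against 10.60 to 11.14 in the first GL2 siRNA DMSO set. The part of these shifts was not tested either. Of 5 fibroblast markers, 3 had a median above 5.00, namely COL1A1 (7.10), DCN (6.26) and PDGFRB (5.24), while COL1A2 (4.71) and COL3A1 (3.34) were dim. Of 5 epithelial markers 1 did, KRT5, at 5.002. Of 4 measured leukocyte markers, LYZ (median 7.83) was the 1 above 5.00, while CD3E (4.65), PTPRC (2.61) and CD14 (0.85) were dim. Their summed level was 6.84 to 8.06 in GL2 siRNA cells with MLN4924, against 7.42 to 8.49 over both DMSO sets. It is given below where it moved in another comparison. LYZ makes up most of this sum, which is not read here as leukocyte content.

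Levels below are log2 signals centred on each array's median gene. TP53INP1 spanned the widest range of the 6 genes, with 6.08 between its highest and lowest group mean, and CCNG1 the narrowest, with 1.51. ZMAT3 spanned 3.09, PLK3 2.41, PLK2 2.16 and AEN 1.65. The median SD within a group lay between 0.09 (PLK2 and CCNG1) and 0.23 (PLK3), so the groups were far better separated for TP53INP1 than for PLK3.

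The order of the groups was not the same for every gene. TP53INP1, ZMAT3 and PLK3 were highest in GL2 siRNA cells with Nutlin. PLK2, CCNG1 and AEN were highest in GL2 siRNA cells with MLN4924, where the next group, BRCA1 siRNA with MLN4924, overlapped each of them. At the low end, p53 siRNA groups filled the last 5 places for ZMAT3 and, for AEN, the last 2. TP53INP1 alone was lowest in p53 siRNA cells with MLN4924, and CCNG1 was lowest in p53 siRNA cells with daunorubicin. Of 13 neighbouring pairs in the order, the arrays of 7 lay apart for TP53INP1, 6 for ZMAT3, 5 for PLK2, 3 for AEN, 2 for CCNG1 and 1 for PLK3.

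**Figure D1:**
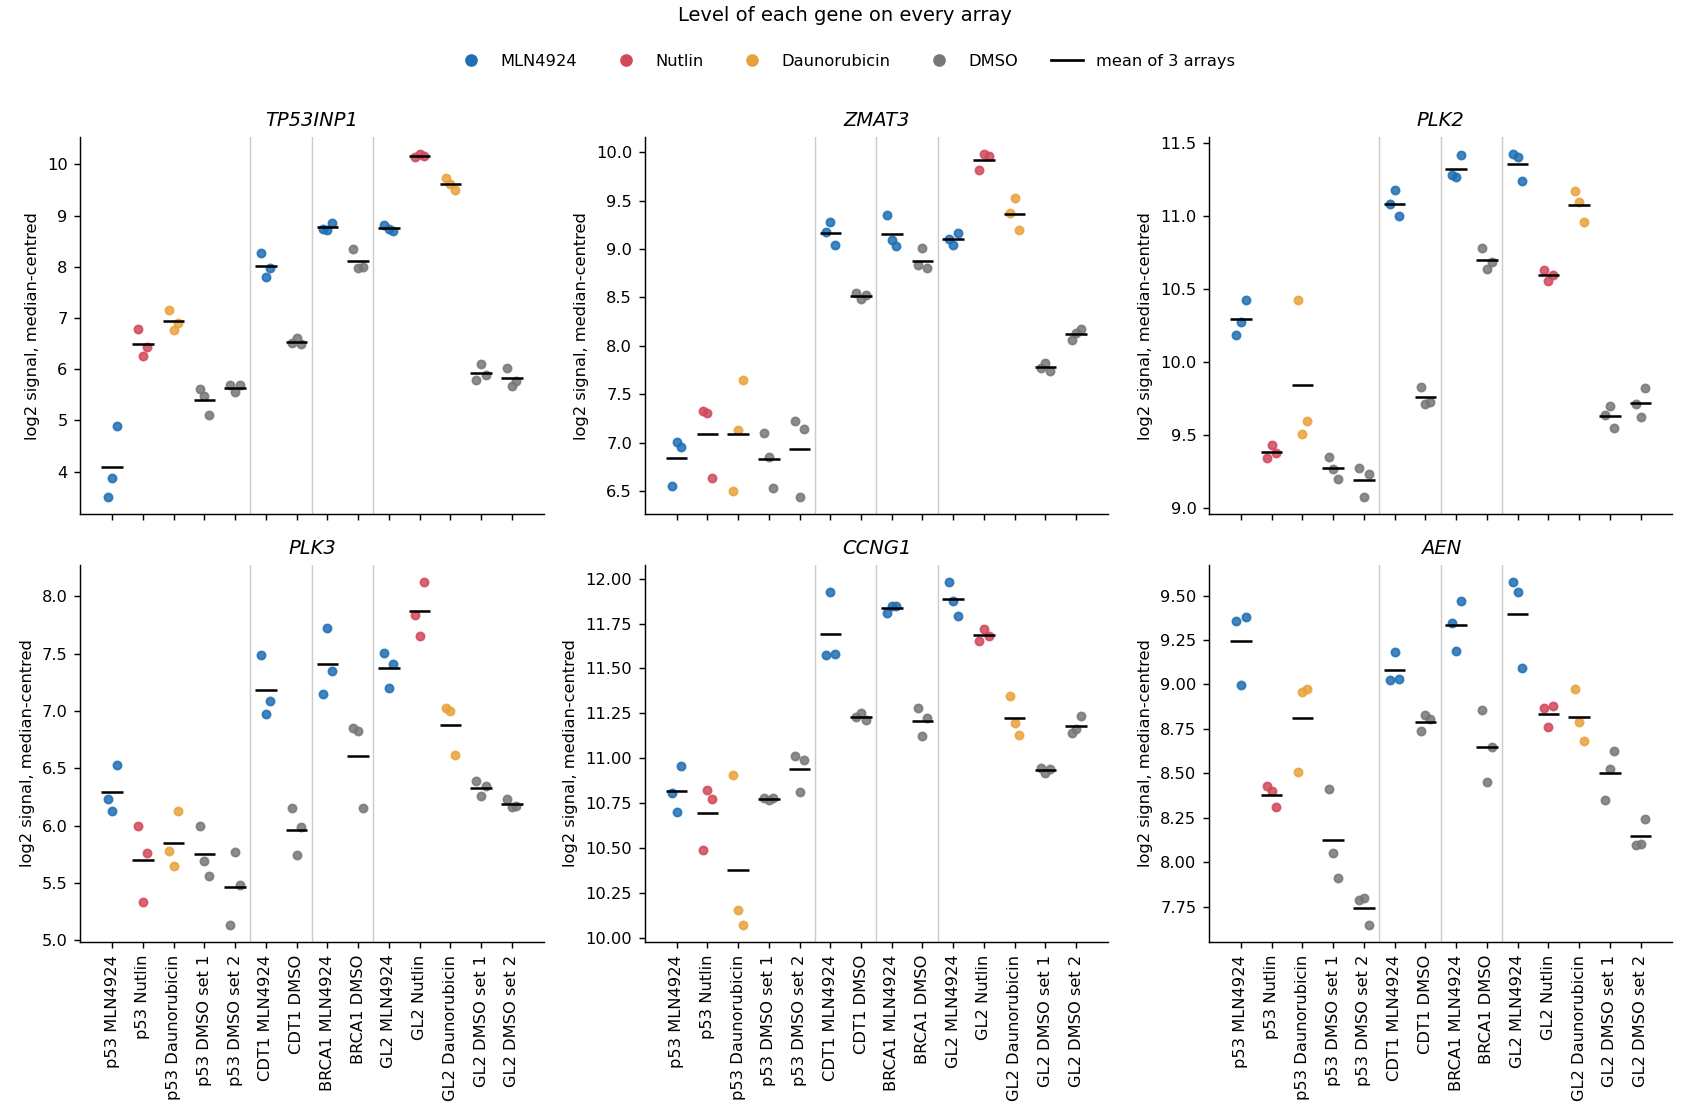
Log2 signal of the 6 measured genes (vertical axes, centred on each array's median gene) on every array, for the 14 groups along the horizontal axes. Each point is 1 array and each bar the mean of 3. TP53INP1 runs from 3.50 in p53 siRNA cells with MLN4924 to 10.20 in GL2 siRNA cells with Nutlin, and AEN is highest in the MLN4924 groups of all 4 siRNAs.

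MLN4924 raised all 6 measured genes in GL2 siRNA cells. They were called at a limma p under 0.05, adjusted by the Benjamini-Hochberg method over all genes, and a change of at least 1.5-fold. By the same rule 17.2% of all genes were called in either direction and 10.2% as higher. The median log2 change was 1.13 for the members and 0.08 for all genes. The control was the mean of both DMSO sets, since the labels do not assign one. In RNA of whole cultures, a different share of cells and a different amount of RNA per cell cannot be told apart.

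TP53INP1 reached 8.82, 8.74 and 8.70 with MLN4924, against 5.67 to 6.11 (median 5.84) over the 6 DMSO arrays. The groups were far apart, and the change was 2.88 ± 0.18 (SE), or 7.34-fold, with a limma adjusted p of 1.4e-13. With the mean of all TP53INP1 probe sets, 2 of them dim, it was 0.62 and not called. PLK2 reached 11.42, 11.40 and 11.24, against 9.54 to 9.82 (median 9.67) under DMSO. It rose 3.21-fold, by 1.68 ± 0.12, with a limma adjusted p of 1.7e-12. ZMAT3 had 9.10, 9.04 and 9.16, against 7.74 to 8.17 (median 7.94). Its arrays did not overlap either, and it rose by 1.15 ± 0.18 (limma adjusted p = 8.4e-06).

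PLK3 had 7.51, 7.20 and 7.41 with MLN4924, against 6.16 to 6.39 (median 6.25) under DMSO, a rise of 1.11 ± 0.18. CCNG1, the smallest of the MLN4924 responses, had 11.98, 11.88 and 11.79, against 10.92 to 11.24 (median 11.04). It rose by 0.83 ± 0.12, or 1.77-fold, with a limma adjusted p of 1.5e-06. AEN had 9.58, 9.52 and 9.09 with MLN4924, against 8.10 to 8.63 (median 8.30) under DMSO. Its lowest MLN4924 array is the one that goes against its label, and the rise of 1.07 ± 0.12 (limma adjusted p = 3.9e-08) was 1.23 without the doubted libraries. All 6 genes were called without the doubted libraries too, with changes between 0.87 (CCNG1) and 2.90 (TP53INP1).

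Nutlin raised 5 of the 6 genes in GL2 siRNA cells, where 16.4% of all genes were called and 6.71% as higher. The members' median log2 change was 1.25, and that of all genes 0.01. The control was the first DMSO set, which daunorubicin shares and which is also part of the MLN4924 control. The labels do not assign a set to Nutlin or daunorubicin, and the first was chosen with an earlier placement of these arrays known. The summed leukocyte level was 8.32 to 8.45 with Nutlin, against 7.42 to 7.64 in that set, and its part in the Nutlin results was not tested.

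TP53INP1 had 10.13, 10.20 and 10.17 with Nutlin, against 5.79, 6.11 and 5.89 under DMSO. This rise of 4.24 ± 0.21, or 18.9-fold, was the largest change of any member in any comparison with DMSO (limma adjusted p = 1.7e-16). ZMAT3 had 9.81, 9.98 and 9.96, against 7.77, 7.82 and 7.74, and rose 4.41-fold, by 2.14 ± 0.21 (limma adjusted p = 1.8e-09). PLK3 had 7.83, 7.66 and 8.13, against 6.39, 6.26 and 6.34. The kinase gene rose by 1.54 ± 0.20, or 2.91-fold, again with no overlap of the groups.

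PLK2 had 10.63, 10.55 and 10.59 with Nutlin, against 9.64, 9.70 and 9.54 under DMSO, a rise of 0.97 ± 0.14. CCNG1 had 11.65, 11.72 and 11.68, against 10.94, 10.92 and 10.94, and rose by 0.75 ± 0.13. With the second DMSO set as the control the CCNG1 change was 0.50 and no longer called. AEN had 8.87, 8.76 and 8.88, against 8.35, 8.52 and 8.63. Although its groups did not overlap, the difference of 0.34 ± 0.14 did not pass (limma adjusted p = 0.0879). Against the second DMSO set, which lay at 8.10, 8.10 and 8.24, the AEN difference was 0.69 and called.

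Daunorubicin raised 3 of the 6 genes in GL2 siRNA cells, where 16.4% of all genes were called and 6.49% as higher. The members' median log2 change was 0.998, against -0.01 for all genes. The summed leukocyte level was 8.81 to 9.04 with daunorubicin, against 7.42 to 7.64 under DMSO, and its part in the results was not tested. TP53INP1 had 9.73, 9.62 and 9.50 with daunorubicin, against 5.79, 6.11 and 5.89 under DMSO, a 12.9-fold rise of 3.69 ± 0.21 (limma adjusted p = 7.6e-15). ZMAT3 had 9.37, 9.53 and 9.19, against 7.77, 7.82 and 7.74, and rose by 1.59 ± 0.21. PLK2 had 11.17, 11.09 and 10.96, against 9.64, 9.70 and 9.54, and rose by 1.45 ± 0.14. None of these groups overlapped.

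PLK3, CCNG1 and AEN did not reach the threshold under daunorubicin. PLK3 had 7.02, 7.002 and 6.62, against 6.39, 6.26 and 6.34 under DMSO, a difference of 0.55 ± 0.20 with a limma adjusted p of 0.0485 and a fold of 1.46. It was called at 0.68 without array 3 of the daunorubicin group, at 0.72 in the deposited scaling, at 0.64 after quantile normalization, at 0.70 with the mean of its probe sets, at 0.69 with the second DMSO set and at 0.62 with both sets. CCNG1 differed by 0.29 ± 0.13 (limma adjusted p = 0.126) and AEN by 0.32 ± 0.14 (limma adjusted p = 0.113). The AEN difference was 0.67 and called against the second DMSO set.

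TP53INP1 was the member with the largest change under each drug in GL2 siRNA cells, and the drugs differed in how far they moved single genes. MLN4924 changed TP53INP1 and ZMAT3 less than Nutlin did and PLK2 and AEN more, so 4 of the 6 genes were called in the test of the difference, where 25.7% of all genes were, 17% as higher and 8.69% as lower. The difference, MLN4924 less Nutlin, was -1.36 ± 0.23 for TP53INP1 (limma adjusted p = 2.2e-05) and -0.99 ± 0.23 for ZMAT3 (limma adjusted p = 0.00122). It was 0.72 ± 0.15 for PLK2 (limma adjusted p = 0.000362) and 0.74 ± 0.16 for AEN (limma adjusted p = 0.000428). In the deposited scaling the PLK2 difference was 0.41 and the AEN difference 0.43, and after quantile normalization they were 0.34 and 0.39, none of them called. With 1 DMSO set shared by both drugs the AEN difference was 0.56 and not called. Without the doubted libraries the differences were -1.33 for TP53INP1, -1.02 for ZMAT3, 0.77 for PLK2 and 0.89 for AEN, and all 4 were called. PLK3 and CCNG1 did not differ past the threshold, with 95% intervals of -0.89 to 0.03 and -0.23 to 0.38. The PLK3 difference of -0.43 was -0.74 in the deposited scaling and -0.63 after quantile normalization, and called in both.

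Against daunorubicin, MLN4924 changed TP53INP1 by -0.81 ± 0.23 (limma adjusted p = 0.00609) and AEN by 0.76 ± 0.16 (limma adjusted p = 0.000287). These were the 2 called members, where 27.2% of all genes were called, 18.2% as higher and 9.03% as lower. Without the doubted libraries they were -0.78 and 0.91 and both called. The AEN difference was 0.40 in the deposited scaling, 0.39 after quantile normalization and 0.58 with 1 DMSO set shared by both drugs, none of them called. The TP53INP1 difference was -0.79 and not called with the mean of all its probe sets. ZMAT3, at -0.43 and not called, was called at -0.79 in the deposited scaling and at -0.82 after quantile normalization. CCNG1 differed by 0.54 ± 0.15, below the fold threshold, and was called at 0.60 without array 1 of GL2 siRNA with daunorubicin and at 0.66 with the shared DMSO set. Between daunorubicin and Nutlin, which share the DMSO arrays, PLK3 was the 1 member called, where 2.3% of all genes were and 1.08% as lower. PLK3 was 1.99-fold lower with daunorubicin, by -0.99 ± 0.20 (limma adjusted p = 0.00382), with 7.02, 7.002 and 6.62 in daunorubicin cells and 7.83, 7.66 and 8.13 in Nutlin cells. This difference was -0.47 and not called with the mean of the PLK3 probe sets, and not called (limma adjusted p = 0.0845) with only the groups compared in the fit. AEN stood at -0.02 there, with a 95% interval of -0.31 to 0.27.

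The p53 siRNA alone lowered 2 of the 6 genes under DMSO, ZMAT3 and PLK3, where 3.98% of all genes were called and 2.27% as lower. The members' median log2 change was -0.41, against -0.01 for all genes. ZMAT3 ranged from 6.44 to 7.23 (median 6.98) over the 6 p53 siRNA arrays, against 7.74 to 8.17 (median 7.94) over the 6 GL2 siRNA arrays. It was 2.10-fold lower, by -1.07 ± 0.15, with a limma adjusted p of 5.4e-06. PLK3 ranged from 5.14 to 5.995 (median 5.63), against 6.16 to 6.39 (median 6.25). Its change was -0.65 ± 0.14 (limma adjusted p = 0.00232), and -0.57 and not called without array 1 of the second p53 siRNA DMSO set. It was also not called against the first DMSO set (-0.58), with a pseudocount of 16 (-0.51) and with the mean of its probe sets (-0.14).

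PLK2 and AEN were lower by less than the fold threshold. PLK2 had 9.07 to 9.35 (median 9.25) in p53 siRNA cells, against 9.54 to 9.82 (median 9.67) in GL2 siRNA cells, with no overlap, a change of -0.44 ± 0.10 and a limma adjusted p of 0.00206. AEN had 7.65 to 8.41 (median 7.86), against 8.10 to 8.63 (median 8.30), and -0.39 ± 0.10 (limma adjusted p = 0.00951). TP53INP1 differed by -0.36 ± 0.15 (limma adjusted p = 0.131) and CCNG1 by -0.20 ± 0.09 (limma adjusted p = 0.208). TP53INP1, with the largest drug responses, was thus among the members with no called change when p53 was targeted in vehicle cells.

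With p53 targeted, Nutlin raised 1 member, TP53INP1, where 0.0556% of all genes, 11 in number, were called and 0.0405% as higher. TP53INP1 had 6.79, 6.25 and 6.42 with Nutlin, against 5.62, 5.48 and 5.10 under DMSO. The groups did not overlap, and the change was 1.09 ± 0.21 with a limma adjusted p of 0.0227. This call was lost without array 1 or 3 of the Nutlin group (0.94 and 1.12) and without array 2 or 3 of the DMSO group (1.13 and 0.94). It was also lost with the mean of all TP53INP1 probe sets (0.42) and with only the groups compared in the fit (limma adjusted p = 0.508).

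The other 5 members stayed between -0.08 (CCNG1) and 0.26 (ZMAT3) under Nutlin in p53 siRNA cells. AEN had 8.43, 8.40 and 8.31, against 8.41, 8.05 and 7.91, a difference of 0.25 ± 0.14 that was 0.64 and called with the second DMSO set. In the test of the difference between p53 and GL2 siRNA, 5 members had a smaller Nutlin change in p53 siRNA cells, where 10% of all genes were called and 4.72% as lower. The differences were -3.15 ± 0.29 for TP53INP1, -1.88 ± 0.30 for ZMAT3, -1.59 ± 0.29 for PLK3, -0.86 ± 0.19 for PLK2 and -0.83 ± 0.19 for CCNG1. Their limma adjusted p-values ran from 1.8e-09 to 0.00283. AEN, with -0.08 ± 0.20 and a 95% interval of -0.49 to 0.33, was not called.

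MLN4924 left a different pattern in p53 siRNA cells, with AEN, PLK2 and PLK3 higher and TP53INP1 lower. These 4 calls stand where 25.4% of all genes were called, 17.8% as higher and 7.6% as lower. AEN had 9.36, 8.996 and 9.38 with MLN4924, against 7.65 to 8.41 (median 7.86) over 6 DMSO arrays. The nuclease gene rose 2.48-fold, by 1.31 ± 0.12, with a limma adjusted p of 5.4e-10. PLK2 had 10.19, 10.27 and 10.42, against 9.07 to 9.35 (median 9.25), and rose by 1.06 ± 0.12 (limma adjusted p = 1.4e-08). After quantile normalization this PLK2 change was 0.58 and fell short of the fold threshold.

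PLK3 had 6.23, 6.13 and 6.53 with MLN4924 in p53 siRNA cells, against 5.14 to 5.995 (median 5.63) under DMSO. Its rise of 0.69 ± 0.18 (limma adjusted p = 0.00205) was 0.27 in the deposited scaling, 0.54 against the first DMSO set alone, 0.53 with a pseudocount of 16, 0.24 with the mean of its probe sets and 0.57 without array 3 of the MLN4924 group, none of them called. TP53INP1 had 3.50, 3.87 and 4.89, against 5.10 to 5.70 (median 5.58). All 3 arrays lay below every DMSO array, and the gene was 2.70-fold lower, by -1.43 ± 0.18 (limma adjusted p = 1.1e-07). These levels lie in the dim range, under 5.00, so the fold rests on faint signals. ZMAT3 differed by -0.04 ± 0.18 and CCNG1 by -0.04 ± 0.12. In these cells the summed leukocyte level was 6.49 to 7.12 with MLN4924, against 7.57 to 8.28 over both DMSO sets. Its part in these results was not tested.

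The scaling shifted all genes here. Without centring, the median gene changed by -0.22 with MLN4924 in p53 siRNA cells, and with centring by 0.20. For MLN4924 in GL2 siRNA cells these medians were -0.10 and 0.08. The TP53INP1 decrease and the AEN rise were called under all 21 alternatives tried for them, with -1.85 to -0.62 and 0.89 to 1.50.

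The difference between p53 and GL2 siRNA in the MLN4924 change was called for 4 members, where 10.4% of all genes were called and 3.41% as lower. It was -4.31 ± 0.25 for TP53INP1 (limma adjusted p = 5.9e-13), whose direction was opposite in the GL2 and p53 siRNA cells. It was -1.20 ± 0.26 for ZMAT3, -0.86 ± 0.16 for CCNG1 and -0.62 ± 0.17 for PLK2. The PLK2 difference was -0.57 and not called without array 1 of p53 siRNA with MLN4924, and -0.53 and not called against the second DMSO set. PLK3 had -0.42 ± 0.25, with a 95% interval of -0.93 to 0.08, and AEN 0.24 ± 0.17, with an interval of -0.12 to 0.59. Without the doubted libraries the called differences were -4.34 for TP53INP1, -1.16 for ZMAT3, -0.91 for CCNG1 and -0.68 for PLK2, and the AEN difference was 0.08. AEN therefore rose with MLN4924 in both siRNA settings with no called difference between them. The interval leaves room for a larger or a slightly smaller rise in p53 siRNA cells.

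**Figure D2:**
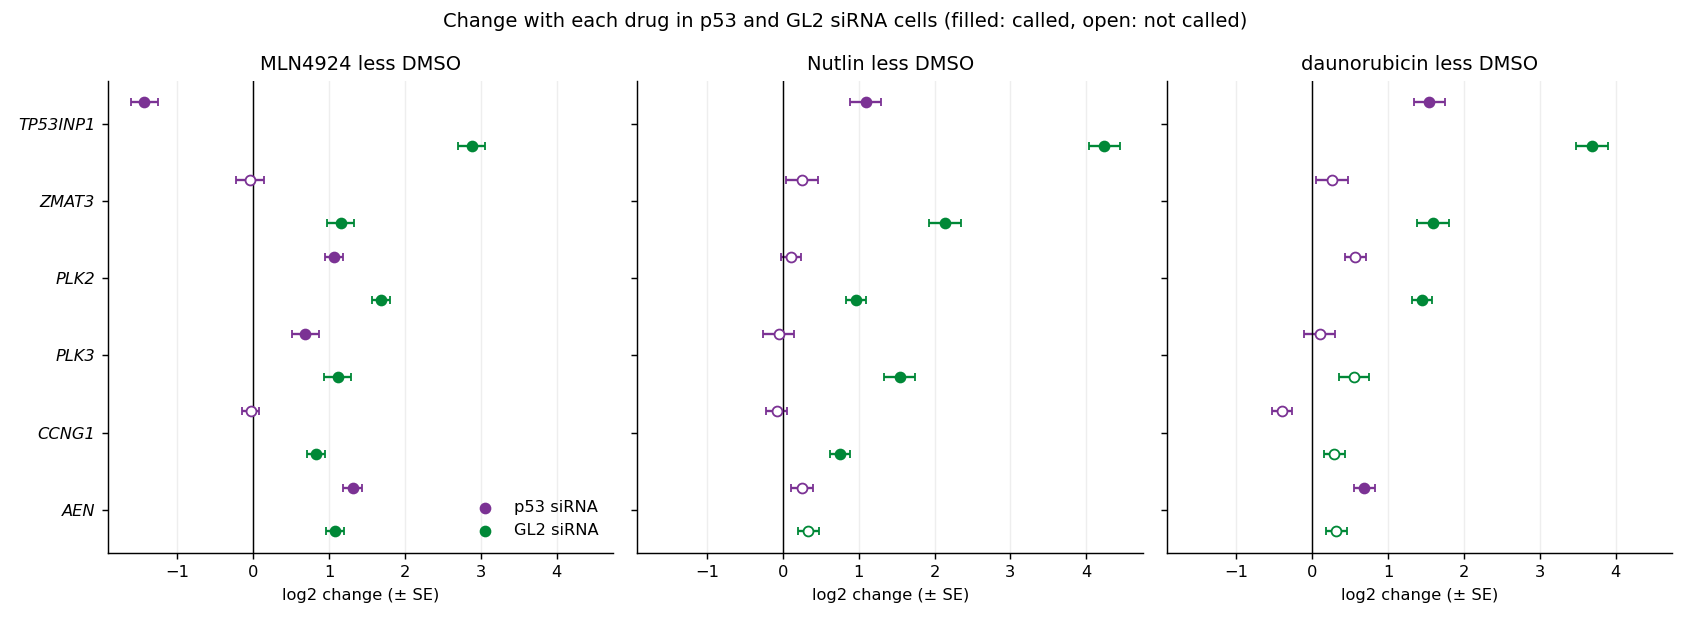
Log2 change with each drug against DMSO (horizontal axes, ± SE) for the 6 genes, in p53 siRNA cells (upper point of each pair) and GL2 siRNA cells (lower point). Filled points were called. With MLN4924, TP53INP1 lies at -1.43 in p53 siRNA cells and at 2.88 in GL2 siRNA cells, and AEN lies at 1.31 and 1.07.

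Daunorubicin raised TP53INP1 and AEN in p53 siRNA cells, where 12% of all genes were called and 5.67% as higher. TP53INP1 had 7.15, 6.77 and 6.90, against 5.62, 5.48 and 5.10 under DMSO, a rise of 1.54 ± 0.21 (limma adjusted p = 3.2e-06). AEN had 8.51, 8.96 and 8.97, against 8.41, 8.05 and 7.91, and rose by 0.69 ± 0.14 (limma adjusted p = 0.000779). Without the doubted libraries TP53INP1 rose by 1.44 and AEN by 0.84. TP53INP1 was at 0.42 and not called with the mean of all its probe sets. With only the groups compared in the fit neither was called (limma adjusted p = 0.0659 for TP53INP1 and 0.286 for AEN), and the AEN change was 0.58 and not called without array 3 of the first DMSO set. The summed leukocyte level was 8.61 to 9.17 with daunorubicin, against 7.57 to 7.80 in that set, and its part in the results was not tested.

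The doubted array 1 stood apart from its group for PLK2, CCNG1 and AEN. PLK2 had 10.42 there and 9.51 and 9.60 on the other arrays, against 9.35, 9.27 and 9.20 under DMSO. Its change was 0.57 ± 0.14 and not called, 0.28 without that array, and called at 0.74, 0.69 and 0.61 without daunorubicin array 2, daunorubicin array 3 and DMSO array 1. PLK2 was also called at 0.64 in the deposited scaling, 0.60 after quantile normalization, 0.64 with the mean of all probe sets, 0.65 against the second DMSO set and 0.61 against both. CCNG1 had 10.91, 10.16 and 10.07, against 10.78, 10.77 and 10.78. The cyclin gene differed by -0.40 ± 0.13, and by -0.66 and called without array 1. ZMAT3 had 6.50, 7.13 and 7.65, against 7.10, 6.85 and 6.53, a difference of 0.26 ± 0.21 that was 0.56 and not called without array 1.

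In the test between p53 and GL2 siRNA, 4 members had a smaller daunorubicin change in p53 siRNA cells, where 15.3% of all genes were called and 5.69% as lower. The differences were -2.14 ± 0.29 for TP53INP1, -1.33 ± 0.30 for ZMAT3, -0.88 ± 0.19 for PLK2 and -0.69 ± 0.19 for CCNG1. Without the doubted libraries they were -2.25, -1.03, -1.17 and -0.95, and all 4 were called. With only the groups compared in the fit, ZMAT3, PLK2 and CCNG1 were not called (limma adjusted p = 0.0663, 0.141 and 0.212), and with the mean of all its probe sets TP53INP1 was not (-0.99). The CCNG1 call was lost at -0.58 and -0.53 when array 2 or 3 of p53 siRNA with daunorubicin was left out. PLK3 had -0.45 ± 0.29 and AEN 0.37 ± 0.20, with a 95% interval of -0.04 to 0.78, and neither was called. PLK3 was called at -0.94 with the mean of its probe sets.

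BRCA1 siRNA raised TP53INP1, PLK2 and ZMAT3 in cells that received only DMSO. BRCA1 is a repair protein of homologous recombination. The 3 calls stand where 8.48% of all genes were called and 4.11% as higher. TP53INP1 had 8.35, 7.97 and 7.997 with BRCA1 siRNA, against 5.67 to 6.11 (median 5.84) with GL2 siRNA. It rose 4.69-fold, by 2.23 ± 0.18 (limma adjusted p = 3.7e-10). With the mean of all TP53INP1 probe sets, 2 of them dim, the change was 0.42 and not called. PLK2 had 10.78, 10.63 and 10.69, against 9.54 to 9.82 (median 9.67), a rise of 1.03 ± 0.12 (limma adjusted p = 3.4e-07). ZMAT3 had 8.83, 9.005 and 8.80, against 7.74 to 8.17 (median 7.94), and rose by 0.93 ± 0.18 (limma adjusted p = 0.000545). PLK3 (0.35 ± 0.18), AEN (0.33 ± 0.12) and CCNG1 (0.15 ± 0.12) did not pass the threshold. The summed leukocyte level was 9.39 to 9.67 with BRCA1 siRNA, against 7.42 to 8.49 with GL2 siRNA, and its part in the BRCA1 siRNA results was not tested.

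CDT1 siRNA raised 1 member under DMSO, TP53INP1, where 6.3% of all genes were called and 2.72% as higher. TP53INP1 had 6.51, 6.61 and 6.49, against 5.67 to 6.11 (median 5.84) with GL2 siRNA. The arrays lay apart, and the change was 0.66 ± 0.18 (limma adjusted p = 0.0123). It was 0.62 and not called without array 2 of the CDT1 siRNA group, and 0.60 and not called against the first DMSO set. It was 0.54 with a pseudocount of 16 and -0.48 with the mean of all its probe sets, and not called in either. ZMAT3 was close to the threshold at 0.57 ± 0.18 (1.48-fold), and called at 0.74 against the first DMSO set, 0.61 in the deposited scaling and after quantile normalization, and 0.65 with the mean of its probe sets. AEN differed by 0.47 ± 0.12, and by 0.64 and called against the second DMSO set, while PLK2, CCNG1 and PLK3 lay at 0.08, 0.17 and -0.30.

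MLN4924 raised PLK2, PLK3, TP53INP1 and ZMAT3 in CDT1 siRNA cells against their own DMSO arrays, where 10.6% of all genes were called and 5.93% as higher. PLK2 had 11.08, 11.18 and 10.997, against 9.83, 9.71 and 9.73, and rose by 1.33 ± 0.14 (limma adjusted p = 1.5e-08). TP53INP1 had 8.26, 7.79 and 7.98, against 6.51, 6.61 and 6.49, and rose by 1.48 ± 0.21. With the mean of all its probe sets this was 0.69 and not called. PLK3 had 7.49, 6.98 and 7.09, against 6.16, 5.74 and 5.99, and rose by 1.22 ± 0.20. All of these groups lay apart. ZMAT3 rose by 0.65 ± 0.21 (limma adjusted p = 0.031), a call that was lost at 0.54 in the deposited scaling and without any of the 3 CDT1 siRNA DMSO arrays or array 1 or 2 of the MLN4924 group (0.59 to 0.66). CCNG1 and AEN were at 0.46 ± 0.13 and 0.29 ± 0.14. The summed leukocyte level was 6.93 to 7.35 with MLN4924 in CDT1 siRNA cells, against 8.34 or more under DMSO. Its part in these results was not tested.

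In BRCA1 siRNA cells MLN4924 raised 5 members, all but ZMAT3, where 16.9% of all genes were called and 9.79% as higher. The rises were small, at 0.80 ± 0.20 for PLK3, 0.68 ± 0.14 for AEN, 0.66 ± 0.21 for TP53INP1, 0.63 ± 0.13 for CCNG1 and 0.62 ± 0.14 for PLK2. TP53INP1 had 8.73, 8.72 and 8.86 with MLN4924, against 8.35, 7.97 and 7.997 under DMSO, and the MLN4924 arrays overlapped the 8.70 to 8.82 of GL2 siRNA cells with MLN4924. In the deposited scaling, and after quantile normalization, PLK3 alone was called. With the mean of all probe sets TP53INP1 (0.15), PLK3 (0.39), CCNG1 (0.57) and PLK2 (0.57) were not called, and with only the groups compared in the fit PLK3 was not (limma adjusted p = 0.102). The summed leukocyte level was 6.72 to 8.04 with MLN4924, against 9.39 to 9.67 under DMSO, and its part in these results was not tested.

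The BRCA1 siRNA calls also rest on single arrays. Without array 2 of the DMSO group, TP53INP1 (0.60), CCNG1 (0.58) and AEN (0.58) were not called. Without array 3 of that group, TP53INP1 (0.61) and PLK3 (0.57) were not called. Without array 3 of the MLN4924 group, which goes against its label, TP53INP1 (0.62) and PLK2 (0.57) were not called. In the fit without all 3 doubted libraries, PLK3 (0.82), TP53INP1 (0.62), CCNG1 (0.62) and AEN (0.62) were called and PLK2 (0.57) was not.

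TP53INP1 was the member whose MLN4924 change differed past the threshold between GL2 and each of the other siRNAs. The difference from GL2 siRNA cells was -1.40 ± 0.27 in CDT1 siRNA cells (limma adjusted p = 0.0057), and in BRCA1 siRNA cells it was -2.21 ± 0.27 (limma adjusted p = 6.8e-06). With the mean of all TP53INP1 probe sets, dim ones included, the difference was 0.071 for CDT1 siRNA and -0.47 for BRCA1 siRNA, and neither was called. Without the doubted libraries it was -1.43 and -2.28, and called in both. PLK2 had a smaller MLN4924 change in BRCA1 siRNA cells, by -1.06 ± 0.18 (limma adjusted p = 0.000778), and by -1.17 without the doubted libraries. Its MLN4924 arrays overlapped, at 11.27 to 11.42 with BRCA1 siRNA and 11.24 to 11.42 with GL2 siRNA. Under DMSO PLK2 lay at 10.63 to 10.78 with BRCA1 siRNA, against 9.54 to 9.82 with GL2 siRNA. The same DMSO arrays gave the BRCA1 siRNA rises of PLK2 and TP53INP1 above, so these results are not independent. ZMAT3 was not called for BRCA1 siRNA at -0.87, but was with the mean of its probe sets (-1.09) and with only the groups compared in the fit (limma adjusted p = 0.00997). TP53INP1 and PLK2 are the 2 members called for BRCA1 siRNA, where 1.86% of all genes were and 1.23% as lower. AEN was the second member called for CDT1 siRNA, where 1.22% of all genes were and 0.698% as lower, with -0.79 ± 0.19 (limma adjusted p = 0.0267).

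The AEN difference for CDT1 siRNA was fragile. It was -0.94 and called without the doubted libraries. It was -0.71 and not called in the deposited scaling or after quantile normalization, and -0.61 and not called against the first DMSO set. Leaving out array 1 or 2 of GL2 siRNA with MLN4924, any CDT1 siRNA DMSO array, or array 1 or 3 of CDT1 siRNA with MLN4924 also ended the call, at -0.81 to -0.70. For BRCA1 siRNA, the AEN difference was -0.39 ± 0.19 with all arrays, and -0.61 and called without the doubted libraries. All of these tests share the GL2 siRNA arrays.

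**Figure D3:**
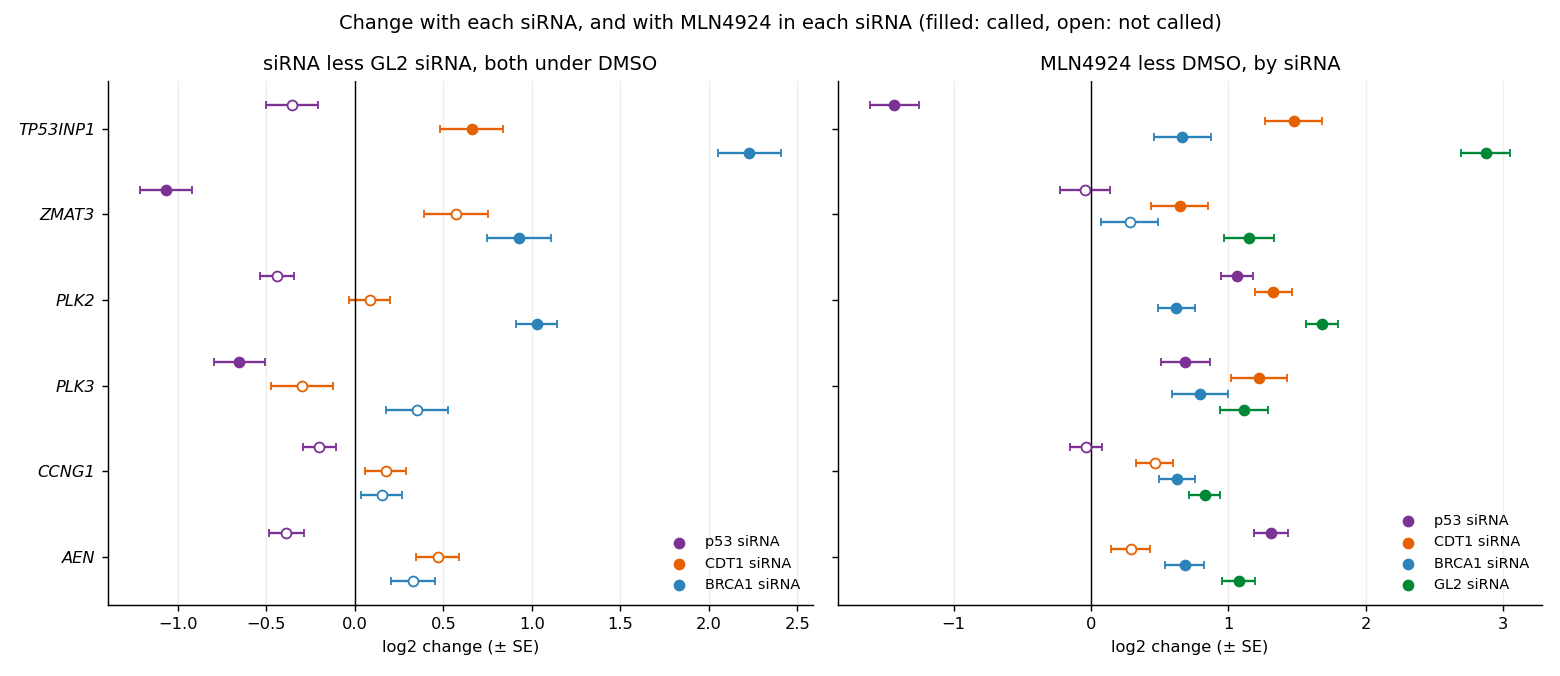
Log2 change (horizontal axes, ± SE) of the 6 genes with each siRNA against GL2 siRNA under DMSO (left), and with MLN4924 against DMSO in each siRNA (right). Filled points were called. BRCA1 siRNA places TP53INP1 at 2.23 under DMSO, and the MLN4924 change of TP53INP1 runs from -1.43 in p53 siRNA cells to 2.88 in GL2 siRNA cells.

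Most of the other p53 targets also rose with each drug in GL2 siRNA cells. Of 28 listed targets 26 were measured, and 22 rose with MLN4924, 24 with Nutlin and 19 with daunorubicin, with none called lower. Of all genes, 10.2%, 6.71% and 6.49% were called higher. The targets' median log2 changes were 1.73, 1.49 and 1.21. CDKN1A changed by 2.57, 3.28 and 2.78 with these drugs, MDM2 by 1.94, 2.90 and 1.93, and GDF15, a stress cytokine, by 5.35, 3.95 and 3.67. In p53 siRNA cells 12 of the 26 rose and 3 fell with MLN4924, 2 rose with Nutlin, and 14 rose and 1 fell with daunorubicin. The shares of all genes called there were 17.8% higher and 7.6% lower with MLN4924, 0.0405% higher with Nutlin, and 5.67% higher and 6.35% lower with daunorubicin.

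Among these targets, MLN4924 in p53 siRNA cells lowered TRIM22 (-1.50), DDB2 (-0.81) and TP53I3 (-0.72). It raised SESN2 (2.45), GADD45A (2.42), GDF15 (2.40) and PMAIP1 (2.27). The p53 siRNA under DMSO lowered 8 and raised none, where 2.27% of all genes were called lower, with CDKN1A at -2.09 and GDF15 at -2.32. BRCA1 siRNA raised 11 and lowered 1, APAF1, where 4.11% of all genes were called higher and 4.37% lower. CDT1 siRNA raised 5, where 2.72% of all genes were called higher. The list was chosen with earlier results of these arrays known, so its direction is not independent evidence.

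The relatives of the members by sequence moved in both directions. Of 17 genes from the BTG and TOB, TP53INP, ZMAT, polo-like kinase, cyclin G and ISG20 families, 4 rose and 3 fell with MLN4924 in GL2 siRNA cells. With Nutlin 3 rose and 2 fell, and with daunorubicin 3 rose and 2 fell. Of all genes, 10.2% were called higher and 7.06% lower with MLN4924, 6.71% and 9.67% with Nutlin, and 6.49% and 9.93% with daunorubicin. PLK1, the mitotic kinase, fell with all these drugs (-2.72 with MLN4924, -3.82 with Nutlin and -3.65 with daunorubicin), as did PLK4, the kinase of centriole duplication (-1.61, -4.51 and -4.08), while their relatives PLK2 and PLK3 had the positive changes given above. TOB1, an antiproliferative relative of BTG2, rose by 0.93, 0.87 and 0.82. TP53INP2, the closest relative of TP53INP1, rose by 1.28 with Nutlin and 1.26 with daunorubicin, and stood at -0.46, not called, with MLN4924. ISG20 fell with MLN4924 (-1.78) and stood at -0.01 with Nutlin and 0.07 with daunorubicin, neither called. The remaining called relatives rose, namely ZMAT5 (1.10), ISG20L2 (0.63) and ZMAT2 (0.60) with MLN4924, CCNG2 (0.59) with Nutlin and BTG1 (0.81) with daunorubicin.

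Over the 14 group means, Pearson's r between members ran from 0.45 (TP53INP1 and AEN) to 0.89 (TP53INP1 and ZMAT3), with a median of 0.80 over 15 pairs. AEN had its highest r with PLK2, at 0.83. CDKN1A was followed most closely by ZMAT3 (0.93) and TP53INP1 (0.92) and least by AEN (0.65). These values describe 14 points that share arrays of the same cell line and the same scaling.

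Among 9882 genes at or above the median gene's level, the patterns most like TP53INP1 were those of DGKA (0.97), ACER2 (0.97) and SESN1 (0.96). Those most like ZMAT3 were RABGGTA (0.97), CMBL (0.97) and ATP6AP2 (0.96). PLK2 was closest to LINC02035 (0.96), KDM7A (0.96) and BCL2L13 (0.95), and PLK3 to MDM2 (0.97), INPP5D (0.96) and SCRIB (0.95). CCNG1 was closest to PHLDA3 (0.96), TMEM63B (0.94) and RFNG (0.94), and AEN to POLR3A (0.95), HMGXB3 (0.94) and RAB3GAP1 (0.93). The p53 targets SESN1, MDM2 and PHLDA3 appear beside TP53INP1, PLK3 and CCNG1, and no listed p53 target appears beside ZMAT3, PLK2 or AEN.

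**Figure D4:**
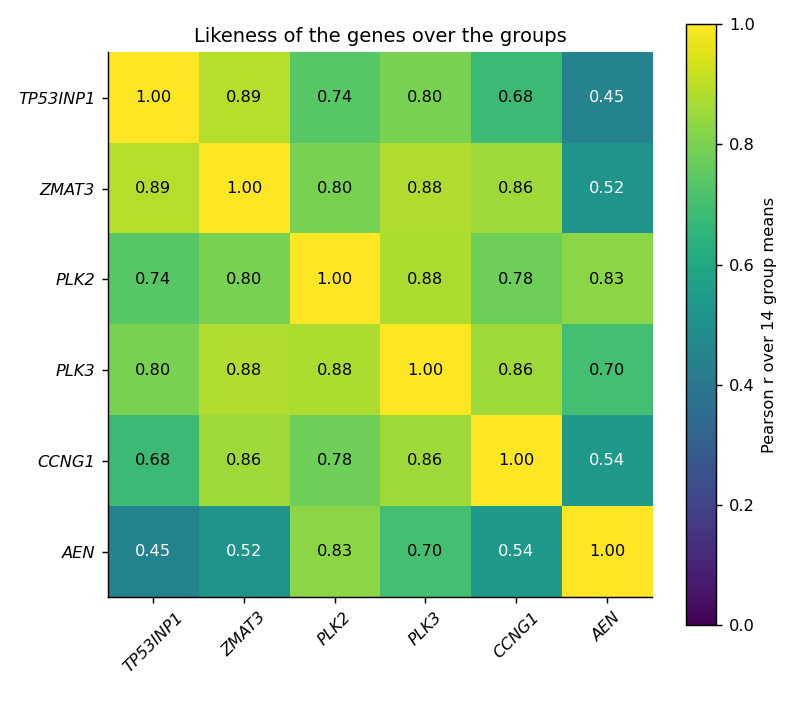
Pearson's r between the 6 genes over the 14 group means, as colour and number. TP53INP1 and ZMAT3 are the most alike (0.89) and TP53INP1 and AEN the least (0.45).

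Other probe sets of a gene did not always repeat its values. ZMAT3 has 5 probe sets, and all of them changed by 1.70 to 2.38 with Nutlin in GL2 siRNA cells. PLK3 has 3, which changed by 1.54, 1.33 and 0.63 with Nutlin but by -0.65, -0.30 and 0.53 with p53 siRNA under DMSO. With MLN4924 in p53 siRNA cells the PLK3 probe sets stood at 0.69, 0.18 and -0.09. TP53INP1 has 2 further probe sets with a mean log2 signal of 2.05 and 0.15, in the dim range, which changed by -0.65 and -0.42 with MLN4924 in GL2 siRNA cells, where the bright one changed by 2.88. PLK2, CCNG1 and AEN rest on 1 probe set each.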

How the data were processed

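RNA of A375 cells was measured on 42 Affymetrix arrays, 1 per sample. The deposited table holds signal intensity on a linear scale for 54675 probe sets, made with Affymetrix Expression Console, as the submitters' processing notes list it without a version. Every array had the same 2% trimmed mean (150.015 to 150.02). The table has no detection calls or scan dates, so background calls and scan batches were not tested.

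Here 147 zeros were raised to 0.1, log2 was taken and the median gene of every array was set equal, since these medians ran from 5.63 to 6.35. GEO's platform annotation gave 41091 probe sets 1 symbol, 1801 several and 11721 none here; 62 were controls. Each of 19775 genes was read from its single-symbol probe set of highest mean. Groups came from the labels.

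Tests used limma 3.58.1 in R 4.3.3 (lmFit, contrasts.fit, eBayes), 1 fit of 14 groups with 28 residual degrees of freedom and 19 comparisons, with Benjamini-Hochberg adjustment over all genes. Nutlin and daunorubicin were set against the first DMSO set, MLN4924 in GL2 and p53 siRNA cells and the CDT1 and BRCA1 siRNAs against both sets. Calls needed an adjusted p under 0.05 and a change of at least 1.5-fold. Precision is limited by how many arrays there are. The script was tested on simulated data, with changes planted in genes drawn from all levels for Nutlin in GL2 siRNA cells. It called 13.4% of the 1.5-fold, 53.7% of the 2-fold and 71.2% of the 4-fold changes, and 2 of 19575 unchanged genes. A gene that was not called may therefore still have changed. The changes were planted in 67, 67 and 66 genes, whereas 16.4% of all genes were called with Nutlin in the real data. The rates thus do not describe the members themselves. Tables and figures were made with matplotlib 3.10.9, pandas 2.3.3 and numpy 2.4.6 in Python 3.11.15.

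The alternatives, named in the closing section, covered scaling, probe sets, controls, thresholds, the fit, the replicate block and leaving out arrays. All members, the siRNA targets, CDKN1A and, for each member, the 3 genes with the most similar group means are named by rule; of 2 lists, other p53 targets and sequence relatives, counts and the members with called or leading changes are named. The members, lists, controls and doubted libraries were chosen with earlier results of these data known.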

Additional observations from a re-analysis of the deposited data

Results flagged for a closer look

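The change with a drug differed between siRNAs by limma's test of the difference for 17 results, each given here as a log2 difference. Between p53 and GL2 siRNA cells the MLN4924 change differed by -4.31 for TP53INP1, -1.20 for ZMAT3, -0.86 for CCNG1 and -0.62 for PLK2. The Nutlin change differed by -3.15 for TP53INP1, -1.88 for ZMAT3, -1.59 for PLK3, -0.86 for PLK2 and -0.83 for CCNG1. The daunorubicin change differed by -2.14 for TP53INP1, -1.33 for ZMAT3, -0.88 for PLK2 and -0.69 for CCNG1, with 1 doubted library in the p53 siRNA group.

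Between CDT1 and GL2 siRNA cells the MLN4924 change differed by -1.40 for TP53INP1 and -0.79 for AEN. Between BRCA1 and GL2 siRNA cells it differed by -2.21 for TP53INP1 and -1.06 for PLK2, with 1 doubted library in each group.

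1 sample stood far from its group. TP53INP1 lay at 5.10 on array 3 of the first p53 siRNA DMSO set, below the other 5 p53 siRNA DMSO arrays. This was 1 of 12 groups tested, and chance marks about 1 in 20.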

How the results depend on the processing

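Values of the 6 genes in 19 comparisons, 114 results, were recomputed under 2514 alternative settings in all. Of these, 2349 kept their side of the threshold, 31 of them with a change of sign where neither value was called. Another 117 kept the direction and lost the call, 46 gained a call and 2 reversed. The reversed values, both for TP53INP1 with the mean of all its probe sets, 2 of them dim, were -0.48 for CDT1 siRNA under DMSO and 0.071 for the difference in MLN4924 change between CDT1 and GL2 siRNA.

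The numbers of members called were within 1.5 times the reported number in 363 cases and moved in 56; the cause was not tested. With the deposited scaling, and likewise with quantile normalization, MLN4924 in BRCA1 siRNA cells had 1 member called, CDT1 siRNA under DMSO 2 and the CDT1 difference in MLN4924 change 1. With the mean of all probe sets, Nutlin in p53 siRNA cells had 0, daunorubicin less Nutlin 0, and MLN4924 in BRCA1 siRNA cells, p53 siRNA under DMSO, the CDT1 difference and MLN4924 less daunorubicin 1 each. With a pseudocount of 16, p53 siRNA under DMSO had 1 and CDT1 siRNA 0.

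Without a fold threshold, daunorubicin in p53 siRNA cells had 4 called, p53 siRNA 4, CDT1 siRNA 3 and daunorubicin less Nutlin 2. At 2-fold, Nutlin in GL2 siRNA cells and its p53 difference had 3 each; the p53 differences for MLN4924 and for daunorubicin had 2 each; daunorubicin in p53 siRNA cells, p53 siRNA, the CDT1 difference and MLN4924 less Nutlin had 1 each; MLN4924 in BRCA1 siRNA cells, CDT1 siRNA, MLN4924 less daunorubicin and daunorubicin less Nutlin had 0. Against the first DMSO set, p53 siRNA and the CDT1 difference had 1 each. Against the second, daunorubicin in GL2 siRNA cells had 5, Nutlin in p53 siRNA cells 2 and CDT1 siRNA 2. With only the groups compared in the fit, Nutlin and daunorubicin in p53 siRNA cells and daunorubicin less Nutlin had 0, and the p53 difference for daunorubicin 1.

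Leaving out 1 array at a time gave 0 to 1 for Nutlin in p53 siRNA cells, 1 to 3 for daunorubicin in p53 siRNA cells, 2 to 5 for MLN4924 in BRCA1 siRNA cells, 1 to 2 for p53 siRNA under DMSO, 0 to 1 for CDT1 siRNA under DMSO and 1 to 2 for the CDT1 difference. The other comparisons stayed within 1.5 times of their number.

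With the replicate number as a block, the number of members called was the same in each of the 19 comparisons, 6 for MLN4924 in GL2 siRNA cells and 5 for Nutlin. Correlations of same-numbered arrays, taken on deviations from their group means, ran from -0.11 to 0.11 over 54 pairs, 1 of them over 0.1. No strong pairing by number was seen, and whether same-numbered arrays share a culture is not stated. The arrays have no detection calls, so how far dim values such as TP53INP1 in p53 siRNA cells with MLN4924 lie above background is not known.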
